A study of Mus musculus with 6 samples.

Results

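The genes described here are the Wnt ligands, their receptors and their antagonists, with the proteins that carry the canonical signal inside the cell. The rule that picks them uses the gene symbol and no measured value, though it was set with earlier results of these data known, so the shares of them called changed are descriptions. It takes all genes named Wnt, Fzd, Sfrp, Dkk (1 to 4) or Rspo with a number, together with *Lrp5*, *Lrp6*, *Ctnnb1*, *Axin1*, *Axin2*, *Lef1*, *Tcf7*, *Tcf7l1*, *Tcf7l2*, *Wif1* and *Frzb*. This gave 52 of the 55401 genes in the count matrix. They comprise 19 Wnt ligands, 4 R-spondins, 10 Frizzled receptors, 2 co-receptors, 6 secreted Frizzled-related proteins or Wif, 4 Dickkopf proteins, 3 genes of β-catenin and its scaffold, and 4 TCF/LEF factors.

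The libraries hold polyadenylated RNA of C2C12 cells, mouse myoblasts that form myotubes once serum is lowered. The cells were taken after 2 d of differentiation in DMEM with 2% horse serum. The comparison asked which transcripts differ when *Phf2*, a demethylase of histone H3 lysine 9, is disrupted. The *Phf2* KO group (3 libraries) came from wild-type C2C12 myoblasts transfected with 4 pooled CRISPR/Cas9 plasmids, each with its own *Phf2* guide and a ZsGreen reporter. The control group (3 libraries, labelled wild type) came from mock cells given a plasmid with Cas9, ZsGreen and a guide that matches no mouse sequence. By the paper's account, mock cells would have no double-strand breaks, and an effect of the breaks themselves is not excluded. In both groups the fluorescent cells were sorted and not cloned, so each group is 1 pool of cells, and the 3 libraries of a group are wells of 1 experiment. The p-values therefore measure the spread between wells, and *Phf2* loss and other differences between the pools cannot be told apart.

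Wnt proteins are secreted, lipid-modified ligands that bind a Frizzled receptor together with Lrp5 or Lrp6. In the canonical branch this stops the Axin scaffold from marking β-catenin for degradation, and β-catenin then acts with TCF/LEF factors on target genes. R-spondins strengthen the signal by keeping Frizzled receptors at the cell surface, while secreted Frizzled-related proteins bind Wnt ligands and Dickkopf proteins bind the Lrp co-receptors. In muscle, Wnt signalling is known for its parts in embryonic myogenesis, in regeneration and at the neuromuscular junction.

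The level of each gene is given as CPM, the estimated count scaled to the library's total with TMM factors between libraries. *Phf2* itself was 102.4, 95.5 and 104.6 CPM in control replicates 1, 2 and 3 and 41.1, 37.6 and 38.6 CPM in the *Phf2* KO replicates. Its transcript was thus lower but still present in the *Phf2* KO libraries (log2 fold change -1.37, standard error (SE) 0.055, adjusted p = 8.32e-09). These RNA values do not give the level of PHF2 protein. The estimated counts totalled 52526109 to 67502788 per library. Here and throughout, adjusted p-values come from the quasi-likelihood test of edgeR, adjusted by Benjamini-Hochberg over the 17310 genes tested, and a gene is called changed when this value is under 0.05. Muscle markers were abundant in every library. Of 8 myotube markers, 6 were lower in *Phf2* KO cells (all 8 with the replicate number as a block), where 3.26% of all genes tested were called lower (3.86% with the block), and their summed level was 7631 to 9030 TPM (a level scaled to transcript length and library) in control and 5767 to 6550 TPM in *Phf2* KO libraries. Of 5 myoblast markers, 2 were lower (*Des* and *Cdh15*), with sums of 1016 to 1093 and 850 to 858 TPM, most of it *Des*. *Myod1* (log2 fold change -0.18), *Myf5* (0.14) and *Pax7* (0.17) did not pass. Of 6 fibroblast and fibro-adipogenic markers, 1 was lower (*Dpt*; with the block also *Ly6a*), with sums of 259.8 to 370.3 and 251.3 to 295.3 TPM. Adipocyte, endothelial, immune and Schwann cell markers summed to at most 3.60 TPM each. Tested were 1 of 4 adipocyte, 0 of 4 endothelial, 1 of 4 immune and 3 of 4 Schwann cell markers. None of those tested was called, where 6.48% of all genes tested were called, and the others had too few counts. *Lep*, *Tie1*, *Adgre1* and *Sox10* had no count in any library. In bulk RNA, fewer cells of a type and less RNA per cell cannot be told apart, and the part of these marker differences in the results that follow was not tested.

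Of the 52 Wnt genes, 36 had enough counts to be tested and 7 were called changed, which is 19.4% of those tested beside 6.48% of all genes tested. In *Phf2* KO cells, 5 were higher (3.22% of all genes tested were called higher): *Rspo2*, *Sfrp2*, *Fzd4*, *Fzd5* and *Lrp6*. The other 2 were lower (3.26% of all genes tested): the ligands *Wnt9a* and *Wnt10a*. The pair with the largest called changes, *Rspo2* and *Sfrp2*, rose about 2.22-fold and 1.95-fold, and the other 5 moved to between 76.1% and 128.2% of the control level. Across the 36 tested genes, 19 had a positive and 17 a negative fold change, and the median log2 fold change was 0.003, beside -0.001 over all genes tested. With limma on the TPM values, *Rspo2* and *Sfrp2* were called and the other 5 were not, with a pseudocount of 1 or of 0.1. The control and *Phf2* KO libraries did not overlap for 14 of the 36, while they did not overlap for 25.1% of all genes tested.

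**Figure D1:**
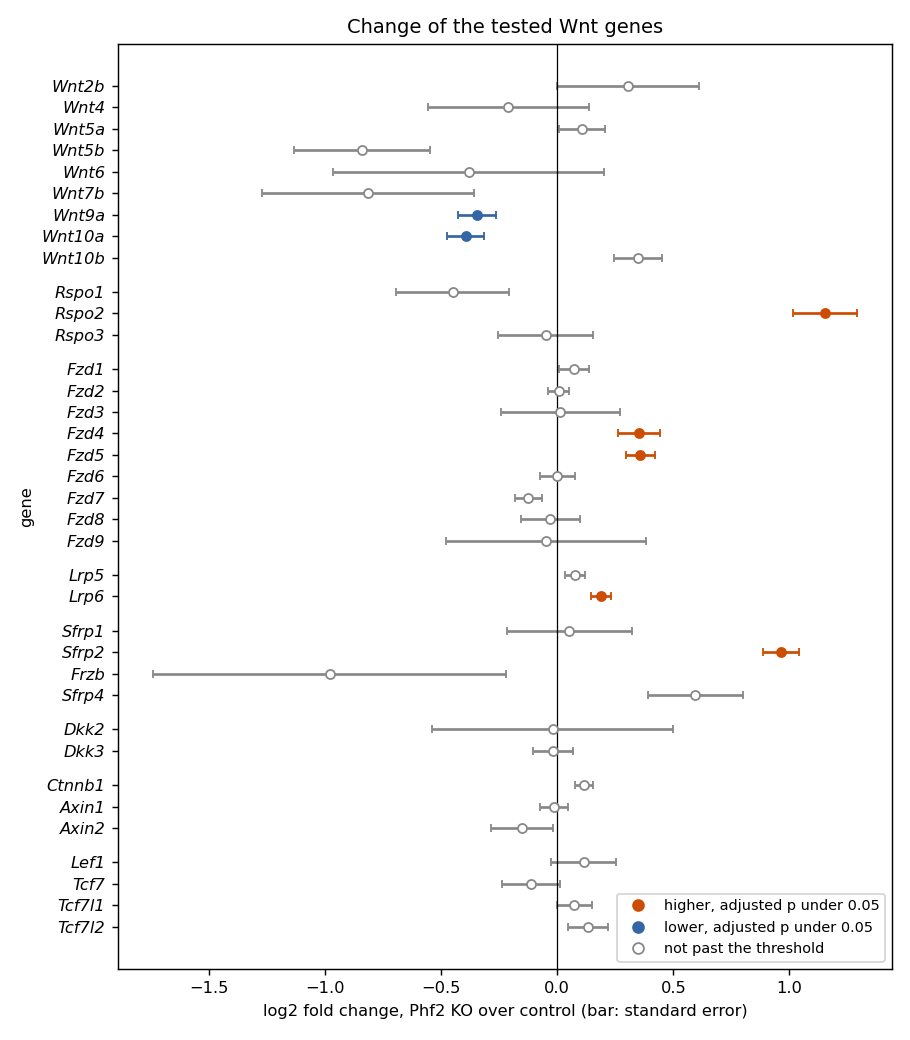
Log2 fold change of the 36 tested Wnt genes in *Phf2* KO over control cells on the x axis, grouped by role, with standard errors as bars; filled points passed an adjusted p of 0.05. *Rspo2* (1.15) and *Sfrp2* (0.96) stand to the right of the other called genes, which lie between -0.39 and 0.36.

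The other 16 genes had too few counts to be tested, with at most 11 estimated counts in any library. These were *Wnt1*, *Wnt2*, *Wnt3*, *Wnt3a*, *Wnt7a*, *Wnt8a*, *Wnt8b*, *Wnt9b*, *Wnt11*, *Wnt16*, *Rspo4*, *Fzd10*, *Sfrp5*, *Wif1*, *Dkk1* and *Dkk4*. A count of 0 in every library was found for 9 of them, including *Wnt3a*, a ligand widely used to activate β-catenin in culture. Since 1 read pair adds about 4 estimated counts, a count of 0 allows up to 3 read pairs, or about 12 estimated counts (0.178 to 0.229 CPM per library), a limit that covers counting error only. Any difference in these genes was not detectable at this depth.

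The levels of the tested genes, compared per transcript length as TPM, were led by β-catenin and by a few members of each class. *Ctnnb1*, which encodes β-catenin, was at 318 to 366 TPM over the 6 libraries. Among Frizzled receptors *Fzd2* (86.7 to 91.2 TPM) and *Fzd1* (70.9 to 86.0 TPM) stood above *Fzd7* (21.5 to 25.7 TPM). The changed receptors *Fzd5* (12.8 to 20.9 TPM) and *Fzd4* (4.30 to 6.06 TPM) were lower in this order. *Fzd5* overlapped its neighbour *Fzd6* in control libraries and was above it in every *Phf2* KO library. The ligands were led by *Wnt10a* (20.8 to 30.9 TPM), *Wnt10b* (12.5 to 20.5 TPM), *Wnt9a* (12.03 to 16.7 TPM) and *Wnt5a* (4.39 to 5.95 TPM), and each of the other 5 tested ligands was under 2 TPM. *Wnt10b* and *Wnt9a* overlapped in control libraries and were apart in *Phf2* KO libraries, where *Wnt10b* was higher. *Sfrp2* (97.9 to 223 TPM) was the most abundant secreted antagonist, followed by *Sfrp4* (30.2 to 69.4 TPM).

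**Figure D2:**
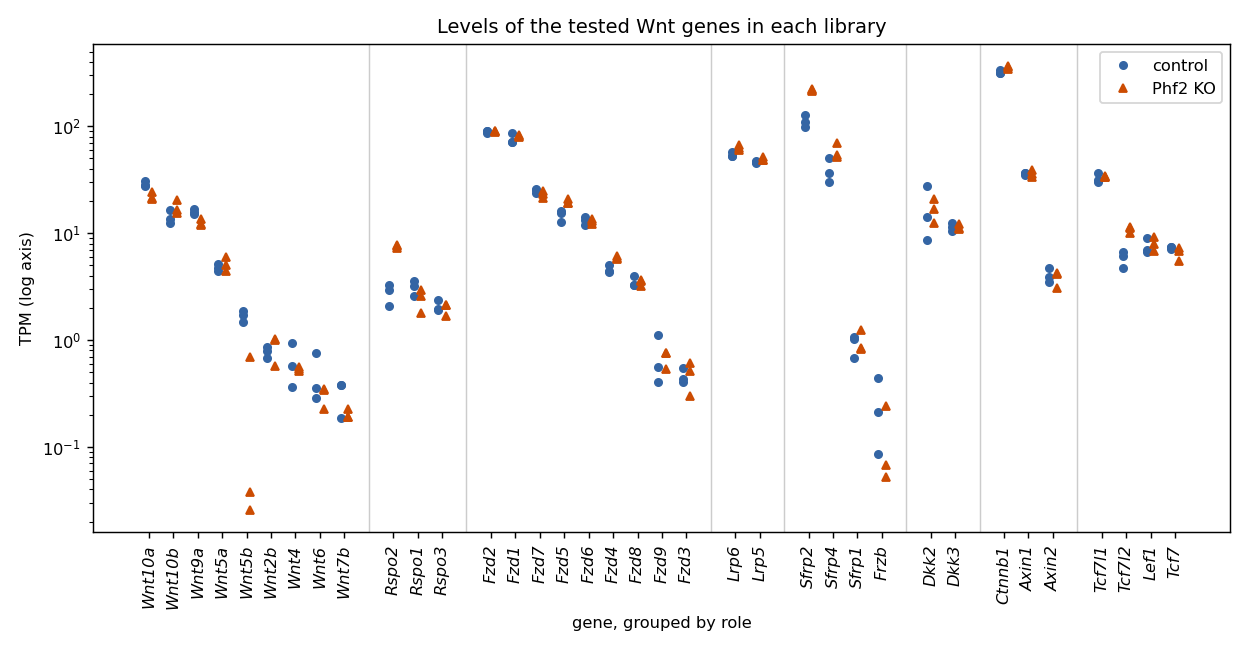
Level of the 36 tested Wnt genes in TPM on a log axis, grouped by role, with 1 point per library (circles, 3 control; triangles, 3 *Phf2* KO). *Ctnnb1* is highest at 318 to 366 TPM, and the *Sfrp2* points of the 2 groups are separate.

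The promoter sequences are shown for the changed genes that have an entry in RefSeq's table (build GRCm38.p6), which are 4 of the 7, so that the base composition and the motifs found can be read. Each line gives the 250 bases before the RefSeq start, read 5′ to 3′ on the gene's strand. *Sfrp2* lies at chr3:83766071-83766320 (plus strand), *Fzd4* at chr7:89404116-89404365 (plus strand), *Fzd5* at chr1:64737751-64738000 (minus strand) and *Wnt9a* at chr11:59306680-59306929 (plus strand). Capitals mark matches to CANNTG, the E-box motif read by myogenic factors and other proteins of their family, or to the TCF/LEF motifs CTTTGA and CTTTGT, searched on both strands. CAGCTG is 1 form of CANNTG.
Sfrp2: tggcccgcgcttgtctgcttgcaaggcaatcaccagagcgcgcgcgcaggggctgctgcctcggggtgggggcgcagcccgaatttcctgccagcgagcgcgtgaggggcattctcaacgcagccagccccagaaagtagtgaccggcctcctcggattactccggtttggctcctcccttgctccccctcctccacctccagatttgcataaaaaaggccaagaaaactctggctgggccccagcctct
Fzd4: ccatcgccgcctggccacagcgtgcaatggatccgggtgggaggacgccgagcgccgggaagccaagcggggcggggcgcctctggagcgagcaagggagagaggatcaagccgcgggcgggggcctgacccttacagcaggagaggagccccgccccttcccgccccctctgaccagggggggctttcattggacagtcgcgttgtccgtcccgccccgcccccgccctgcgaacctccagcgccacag
Fzd5: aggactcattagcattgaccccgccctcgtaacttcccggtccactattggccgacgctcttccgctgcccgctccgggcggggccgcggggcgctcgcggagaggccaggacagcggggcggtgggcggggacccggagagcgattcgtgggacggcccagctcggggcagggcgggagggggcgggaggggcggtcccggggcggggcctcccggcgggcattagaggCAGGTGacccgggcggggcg
Wnt9a: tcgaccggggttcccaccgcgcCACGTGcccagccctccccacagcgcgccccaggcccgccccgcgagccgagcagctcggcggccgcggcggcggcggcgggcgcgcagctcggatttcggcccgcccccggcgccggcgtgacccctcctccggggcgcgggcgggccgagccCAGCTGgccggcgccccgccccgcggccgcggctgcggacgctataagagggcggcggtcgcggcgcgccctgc
The *Wnt9a* window held 2 E-box matches, CACGTG and CAGCTG, the *Fzd5* window held 1, CAGGTG, and those of *Sfrp2* and *Fzd4* held none. None of the 4 windows held CTTTGA or CTTTGT. The GC content was 63.6% for *Sfrp2*, 72.8% for *Fzd4*, 76.4% for *Fzd5* and 84.4% for *Wnt9a*, which had 48 CpG sites. Entries were found for 35 of the 52 Wnt genes, with 44 windows. The median GC content was 67.4% in these windows, beside 52.4% in all 32851 windows of the table, and the median number of CpG sites was 22 beside 6. CANNTG was found in 56.8% of the Wnt windows and 66.2% of all windows, CAGCTG in 11.4% and 13.0%, CTTTGA in 13.6% and 13.8%, and CTTTGT in 18.2% and 16.5%. A match is a description of the sequence and not a site of binding.

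Among the ligands, 2 of the 9 tested genes fell and none rose, where 3.26% of all genes tested were called lower and 3.22% higher. The 2 that fell are among the 3 most abundant in TPM. *Wnt10a* (ENSMUSG00000026167, chr1:74791516-74804179, plus strand, GRCm38), known for its part in teeth and skin appendages, was 31.7, 35.5 and 31.9 CPM in the control replicates and 24.0, 27.8 and 23.7 CPM in the *Phf2* KO replicates. Every *Phf2* KO library was below every control library. The mean went from 33.1 ± 2.13 to 25.2 ± 2.31 CPM (SD, n = 3 each), a log2 fold change of -0.39 (SE 0.0807, adjusted p = 0.00966). The call was lost without control replicate 2 (adjusted p = 0.0724) and without *Phf2* KO replicate 3 (adjusted p = 0.0638), and the range over the 6 fits that left out 1 library was 0.00896 to 0.0724.

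*Wnt9a* (ENSMUSG00000000126, chr11:59306928-59333552, plus strand), a ligand known from joint formation, was 23.4, 25.8 and 24.0 CPM in the control replicates and 18.7, 20.6 and 18.3 CPM in the *Phf2* KO replicates. The groups did not overlap here either. The mean of *Wnt9a* was 24.4 ± 1.27 CPM in control and 19.2 ± 1.25 CPM in *Phf2* KO cells (SD, n = 3 each), with a log2 fold change of -0.35 (SE 0.0815, adjusted p = 0.0207). This call was lost without control replicate 2 (adjusted p = 0.115), *Phf2* KO replicate 1 (0.0654) or *Phf2* KO replicate 3 (0.0949), over a range of 0.0309 to 0.115. *Wnt9a* and *Wnt10a* each lie beside another ligand gene: *Wnt6* ends 6193 bp before *Wnt10a* on the same strand, and *Wnt3a* lies 16175 bp from *Wnt9a* on the opposite strand. *Wnt6* did not pass the test (0.375 ± 0.082 CPM in control and 0.289 ± 0.122 CPM in *Phf2* KO cells) and *Wnt3a* had no count. *Wnt6* had only 10 to 26 estimated counts per library (log2 fold change -0.38, SE 0.584). This is too imprecise to tell a change of the size of *Wnt10a* from none.

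*Wnt10b*, a ligand known to restrain fat cell formation, had values in the opposite direction without passing the test. It was 18.1, 16.0 and 14.9 CPM in control and 23.6, 18.9 and 19.9 CPM in *Phf2* KO replicates, so the groups did not overlap (log2 fold change 0.35, adjusted p = 0.0666). With the replicate number as a block the adjusted p of *Wnt10b* was 0.0284, within a range of 0.0277 to 0.400 over 12 other fits. *Wnt5a*, which acts mainly outside the β-catenin branch, was 15.2 ± 1.00 and 16.3 ± 1.63 CPM (log2 fold change 0.10, adjusted p = 0.645). The other 5 tested ligands (*Wnt2b*, *Wnt4*, *Wnt5b*, *Wnt6* and *Wnt7b*) did not pass the test, and their mean levels were at most 1.86 CPM in either group.

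Summed over the 19 ligands, the level was 65.3 to 68.8 TPM in control and 58.3 to 60.5 TPM in *Phf2* KO libraries. *Wnt10b* made up 19.2 to 23.9% of it in control and 25.8 to 33.9% in *Phf2* KO libraries, which did not overlap. The share of *Wnt10a* was 40.3 to 44.8% in control and 34.3 to 40.7% in *Phf2* KO libraries, which overlapped. These sums are descriptions without a test.

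*Rspo2* had the largest called change of the Wnt genes. *Rspo2* (ENSMUSG00000051920, chr15:43020794-43170826, minus strand) encodes R-spondin 2, a secreted protein that raises the response of a cell to Wnt ligands. It was 5.75, 5.05 and 4.34 CPM in the control replicates and 11.8, 11.7 and 10.1 CPM in the *Phf2* KO replicates. The lowest *Phf2* KO value was above the highest control value. The mean rose from 5.05 ± 0.70 to 11.2 ± 0.97 CPM (SD, n = 3 each), a log2 fold change of 1.15 (SE 0.140, adjusted p = 2.37e-04). These values rest on 253 to 328 estimated counts per control library and 617 to 728 per *Phf2* KO library. The call was kept in each of the 6 fits without 1 library and in each of 12 other fits (largest adjusted p = 0.0276).

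The remaining tested R-spondins did not pass. *Rspo1* was 2.59 ± 0.42 CPM in control and 1.89 ± 0.43 CPM in *Phf2* KO cells (log2 fold change -0.45, adjusted p = 0.342), and *Rspo3* was 2.91 ± 0.44 and 2.81 ± 0.33 CPM (log2 fold change -0.05, adjusted p = 0.936). *Rspo2* therefore took a larger part of the R-spondin transcripts in the *Phf2* KO libraries, 58.9 to 69.1% of the summed TPM in place of 31.2 to 36.4%. The sum itself was 6.63 to 9.29 TPM in control and 11.2 to 12.3 TPM in *Phf2* KO libraries. These shares and sums use the TPM of the reference genes, and transcripts are also listed under assembled loci. There *Rspo2* was 3.92, 3.58 and 3.00 TPM in control and 8.19, 8.40 and 7.27 TPM in *Phf2* KO replicates. The log2 fold change of *Rspo2* was 1.41 by reference TPM (means with 0.1 added) and 1.15 by counts.

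Of the 9 tested Frizzled receptors, 2 were higher in *Phf2* KO cells and none was lower. Over all genes tested, 3.22% were called higher and 3.26% lower. *Fzd5* (ENSMUSG00000045005, chr1:64730558-64737751, minus strand), a receptor known from eye and gut development, was 46.7, 41.2 and 46.6 CPM in control and 56.3, 57.7 and 58.5 CPM in *Phf2* KO replicates. All *Phf2* KO libraries lay above all control libraries. Its mean was 44.8 ± 3.16 and 57.5 ± 1.08 CPM (SD, n = 3 each), with a log2 fold change of 0.36 (SE 0.0606, adjusted p = 0.00279), and it was called in each fit without 1 library. It was not called with limma on log2(TPM + 1) (adjusted p = 0.118) or log2(TPM + 0.1) (0.115), with a range of 1.64e-05 to 0.118 over 12 other fits. *Gm38058* overlaps *Fzd5* on the opposite strand and had 8 to 15 counts per library, beside 2399 to 3956 for *Fzd5*.

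*Fzd4* (ENSMUSG00000049791, chr7:89404355-89413134, plus strand), known as the receptor of Norrin in retinal vessels, was 13.4, 13.9 and 15.5 CPM in control and 18.6, 17.8 and 18.3 CPM in *Phf2* KO replicates. The groups did not overlap. The mean of *Fzd4* went from 14.3 ± 1.05 to 18.2 ± 0.44 CPM (SD, n = 3 each), a log2 fold change of 0.35 (SE 0.0898, adjusted p = 0.0315). Among the fits that left out 1 library it was called only without control replicate 3 (adjusted p = 0.0260). The adjusted p was 0.120 without control replicate 1, 0.127 without control replicate 2, and 0.0894, 0.0811 and 0.0975 without *Phf2* KO replicates 1, 2 and 3.

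The most abundant receptors did not pass the test. *Fzd2* was 150.7 ± 3.23 CPM in control and 151.3 ± 5.84 CPM in *Phf2* KO cells (log2 fold change 0.01, adjusted p = 0.965), and *Fzd1* was 148.0 ± 15.7 and 155.8 ± 4.41 CPM (0.07, adjusted p = 0.615). *Fzd7*, a receptor studied in muscle stem cells, was 52.5 ± 1.73 and 48.2 ± 2.30 CPM (-0.12, adjusted p = 0.251). The summed Frizzled level overlapped between groups, at 219.5 to 240.2 TPM in control and 233.0 to 241.7 TPM in *Phf2* KO libraries.

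Of the co-receptors, *Lrp6* (ENSMUSG00000030201, chr6:134446476-134566965, minus strand) was 241.5, 228.9 and 227.3 CPM in control and 266.7, 257.3 and 270.0 CPM in *Phf2* KO replicates. Each *Phf2* KO library exceeded each control library, by a small margin. The mean was 232.6 ± 7.77 and 264.6 ± 6.58 CPM (SD, n = 3 each), a log2 fold change of 0.19 (SE 0.0432, adjusted p = 0.0194). The *Lrp6* call was lost without control replicate 2 (adjusted p = 0.107), control replicate 3 (0.0700), *Phf2* KO replicate 1 (0.0546) or *Phf2* KO replicate 3 (0.0775), with a range of 0.0288 to 0.107. It was also lost with exactTest (0.0526) and limma on log2(TPM + 1) (0.167) or log2(TPM + 0.1) (0.165), the range over 12 other fits being 0.00142 to 0.167. *Lrp5* was 111.3 ± 2.39 and 117.4 ± 3.13 CPM and did not pass (log2 fold change 0.08, adjusted p = 0.362).

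**Figure D3:**
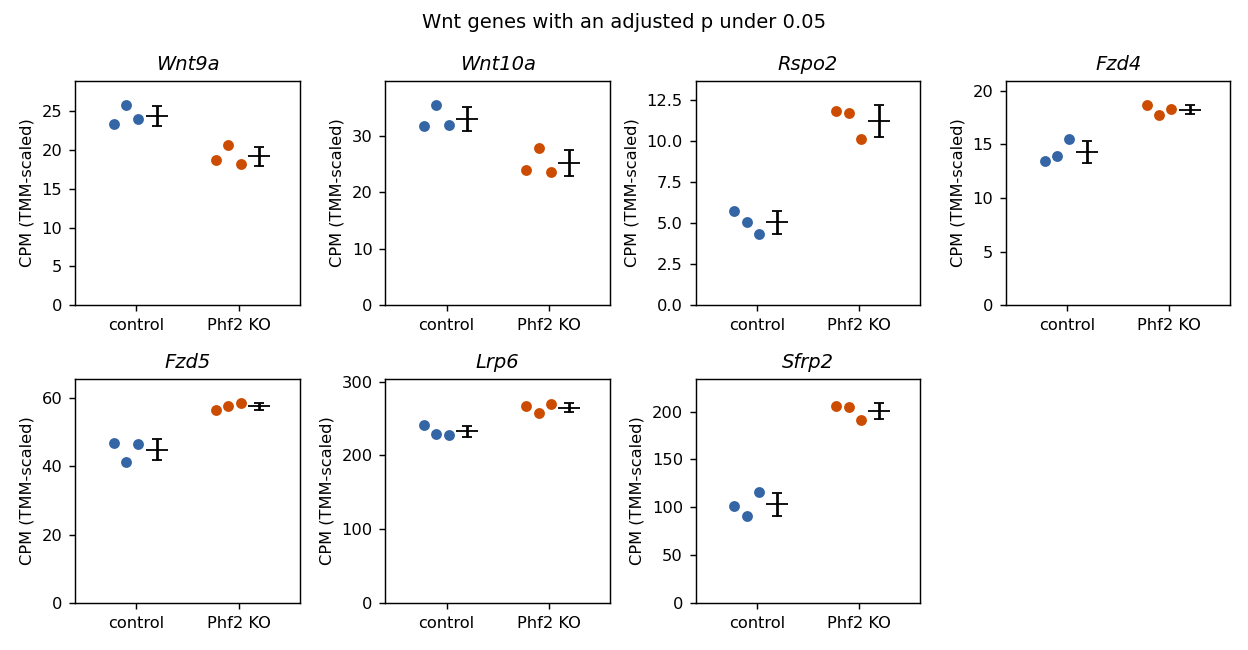
CPM (TMM-scaled, y axes from 0) of the 7 Wnt genes with an adjusted p under 0.05, with 1 point per library, control on the left and *Phf2* KO on the right of each panel; the bars beside them give the mean ± SD of 3 libraries. In all 7 panels the groups are apart, most widely for *Rspo2* (5.05 and 11.2 CPM on average) and *Sfrp2* (102.9 and 200.6 CPM).

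*Sfrp2* was the changed antagonist. *Sfrp2* (ENSMUSG00000027996, chr3:83766321-83774316, plus strand) encodes a secreted protein with a Frizzled-like domain that binds Wnt ligands. It was 101.3, 91.3 and 116.0 CPM in the control replicates and 206.1, 205.0 and 190.7 CPM in the *Phf2* KO replicates, with no overlap. The mean rose from 102.9 ± 12.5 to 200.6 ± 8.61 CPM (SD, n = 3 each), a log2 fold change of 0.96 (SE 0.0785, adjusted p = 1.23e-04). *Sfrp2* was called in each of the 6 fits without 1 library and each of 12 other fits (largest adjusted p = 0.0164). The annotated gene on the opposite strand, *Gm26771*, had no count in any library.

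*Sfrp4*, a secreted protein of the same family, was 45.0, 36.1 and 29.3 CPM in control and 65.4, 47.9 and 53.6 CPM in *Phf2* KO replicates. The groups did not overlap, but replicate 1 was the highest library of both groups. The log2 fold change was 0.60 (SE 0.205, adjusted p = 0.215), which did not pass. With the replicate number as a block the same fold change had a standard error of 0.0817 and an adjusted p of 0.00176. Over 12 other fits the adjusted p of *Sfrp4* ranged from 0.00176 to 0.373, and it passed in 3 of them. The summed level of the 6 secreted Frizzled-related and Wif genes was 135.6 to 161.5 TPM in control and 269.1 to 290.6 TPM in *Phf2* KO libraries, most of it *Sfrp2*. *Sfrp1* and *Frzb* did not pass, at means of at most 1.96 CPM.

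*Dkk2*, which binds the Lrp co-receptors, varied more within the groups than between them. It was 47.4, 24.7 and 14.9 CPM in control and 36.5, 21.4 and 27.8 CPM in *Phf2* KO replicates (log2 fold change -0.02, adjusted p = 0.991). Replicate 1 was again the highest of each group. The fibroblast and fibro-adipogenic markers had their highest sums in the same libraries, at 370.3 TPM in control replicate 1 and 295.3 TPM in *Phf2* KO replicate 1. Most of each sum was *Ly6a* (273.4 and 215.6 TPM). By TPM *Pi16* and *Lum* were also highest in replicate 1 of both groups. *Cd34* was not highest in replicate 1 of either group, and *Pdgfra* and *Dpt* were highest in *Phf2* KO replicate 3. The part of these markers in the spread of *Sfrp4* and *Dkk2* was not tested. *Dkk3*, a divergent family member, was 17.9 ± 1.31 and 17.6 ± 0.61 CPM (-0.02, adjusted p = 0.942).

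**Figure D4:**
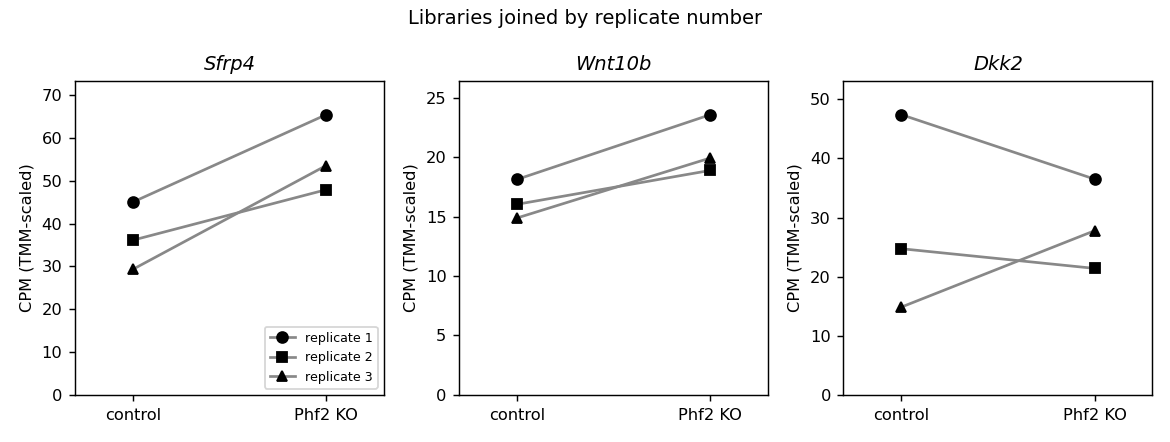
CPM (TMM-scaled, y axes from 0) of *Sfrp4*, *Wnt10b* and *Dkk2* in control and *Phf2* KO libraries, with lines joining the libraries of the same replicate number. *Sfrp4* and *Wnt10b* go up along all 3 lines, while *Dkk2* goes down along 2 and up along 1.

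Libraries of the same replicate number tended to deviate together from their group means, as *Sfrp4* and *Wnt10b* did in replicate 1. Whether this pairing arose by chance was not tested. With the number as a block, 7 Wnt genes were higher and 2 lower, beside 3.74% and 3.86% of all genes tested (7.6% in either direction). The 2 additional genes were *Sfrp4* and *Wnt10b*.

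Of the genes that carry the signal inside the cell, 3 of β-catenin and its scaffold and 4 TCF/LEF factors were tested. None was called, where 6.48% of all genes tested were called, and so few genes cannot show a lack of change. *Ctnnb1* was 527.2, 528.9 and 553.6 CPM in control and 575.3, 585.5 and 582.2 CPM in *Phf2* KO replicates. The groups did not overlap, and the log2 fold change of 0.11 (SE 0.0377) had an adjusted p of 0.0953. *Axin1*, the scaffold of the complex that degrades β-catenin, was 53.3 ± 2.48 and 52.8 ± 2.96 CPM (-0.01, adjusted p = 0.941). *Axin2*, a scaffold that is itself a widely used target of β-catenin, was 7.52, 7.42 and 8.16 CPM in control and 6.05, 7.54 and 7.20 CPM in *Phf2* KO replicates, which overlapped (-0.15, adjusted p = 0.610). Of the TCF/LEF factors, *Lef1* was 11.8 ± 1.85 and 12.8 ± 2.11 CPM (0.11, adjusted p = 0.741) and *Tcf7l1*, the most abundant of them, was 41.9 ± 4.90 and 44.1 ± 1.61 CPM (0.07, adjusted p = 0.679). *Tcf7* (-0.11, adjusted p = 0.703) and *Tcf7l2* (0.13, adjusted p = 0.463) did not pass either.

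For *Tcf7l2* and *Wnt5b* the TPM and the counts differed in what they showed. By TPM *Tcf7l2* was 4.72, 6.08 and 6.66 in control and 9.999, 11.2 and 11.4 in *Phf2* KO replicates, which did not overlap, and limma on log2(TPM + 0.1) gave it an adjusted p of 0.0479. The same tables also list transcripts under assembled loci, where *Tcf7l2* was 18.9, 18.0 and 24.3 TPM in control and 23.6, 22.4 and 24.7 TPM in *Phf2* KO replicates, which overlapped. *Wnt5b*, a ligand mostly of the non-canonical branch, was 1.88, 1.47 and 1.73 TPM in control and 0.0258, 0.0380 and 0.696 TPM in *Phf2* KO replicates under the reference gene. Under assembled loci it was 1.88, 1.47 and 1.73 TPM in control and 0.970, 1.54 and 0.696 TPM in *Phf2* KO replicates, which overlapped. Its estimated counts were 119, 94 and 109 in control and 59, 74 and 51 in *Phf2* KO replicates (log2 fold change -0.84, standard error 0.294, adjusted p = 0.118). The log2 difference between the TPM and the count fold change was 0.76 for *Tcf7l2* and -1.50 for *Wnt5b*, and at most 0.37 in size for the other 34 tested genes. These *Wnt5b* values enter the summed ligand TPM given above.

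A further 83 genes of the pathway outside the 52, in 7 lists, were examined. Of the 72 tested, 5 were higher and 4 lower in *Phf2* KO cells, which is 12.5% beside 6.48% of all genes tested, and their median log2 fold change was 0.06. Of these 9, *Porcn*, *Lgr4*, *Cthrc1* and *Tle2* were also called by limma on the TPM values with both pseudocounts, and the other 5 were not. In Wnt secretion, 1 of 2 genes fell, where 3.26% of all genes tested were called lower. *Porcn*, the acyltransferase that attaches the lipid every Wnt ligand needs for release, was 62.8, 56.7 and 55.2 CPM in control and 42.4, 33.5 and 36.9 CPM in *Phf2* KO replicates. Its mean fell from 58.2 ± 4.04 to 37.6 ± 4.50 CPM (SD, n = 3 each), a log2 fold change of -0.63 (SE 0.083, adjusted p = 7.27e-04). *Wls*, which carries the ligands to the surface, was 538.1 ± 3.76 and 564.5 ± 9.87 CPM and did not pass (0.07, adjusted p = 0.330).

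Among the R-spondin receptors and membrane ubiquitin ligases, 1 of 3 tested genes rose, where 3.22% of all genes tested were called higher. *Lgr4*, a receptor of the R-spondins, was 53.2, 54.6 and 51.7 CPM in control and 70.3, 73.7 and 73.3 CPM in *Phf2* KO replicates. The change from 53.2 ± 1.47 to 72.4 ± 1.85 CPM was a log2 fold change of 0.45 (SE 0.050, adjusted p = 1.45e-04). *Znrf3*, a ligase that removes Frizzled receptors from the surface, was 35.4 ± 2.20 and 37.9 ± 3.01 CPM (0.10, adjusted p = 0.539). *Lgr5* and *Rnf43* were not tested for lack of counts. *Rspo2* and *Lgr4*, a ligand and its receptor, were thus both called higher, as were the Wnt receptors *Fzd4*, *Fzd5* and *Lrp6*. Among the 6 fits without 1 library, *Fzd5* was called in each, *Fzd4* in 1 and *Lrp6* in 2. Other receptors and ligases, among them *Fzd1*, *Fzd2*, *Lrp5*, *Lgr6* and *Znrf3*, were not called.

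Of 6 other receptors and co-receptors tested, *Gpc6*, a glypican, was higher (log2 fold change 0.25, adjusted p = 0.0118; 0.0841 without control replicate 2), and *Musk*, the kinase of the neuromuscular junction with a Frizzled-like domain, was lower. *Musk* went from 42.4 ± 1.19 to 32.2 ± 0.34 CPM (-0.40, adjusted p = 0.00107). Over all genes tested, 3.22% were called higher and 3.26% lower. Of 5 other secreted or membrane inhibitors tested, *Cthrc1* rose from 3.74 ± 0.58 to 7.42 ± 0.70 CPM (log2 fold change 0.99, standard error 0.162, adjusted p = 0.00235). *Cthrc1* is listed with the inhibitors, but its secreted protein is known to favour the planar cell polarity branch. None of 22 tested genes of Dishevelled and the destruction complex was called with edgeR, where 6.48% of all genes tested were called. Of 12 nuclear partners of β-catenin, 2 were higher, beside 3.22% of all genes tested. They were the corepressor *Tle2* (0.27, adjusted p = 0.0280) and *Ctnnbip1*, which blocks the contact of β-catenin with TCF factors (0.26, adjusted p = 0.0403). Each of these was called in 1 of the 6 fits without 1 library, *Tle2* without control replicate 1 and *Ctnnbip1* without *Phf2* KO replicate 1, and the largest adjusted p was 0.119 and 0.137 (both without *Phf2* KO replicate 3).

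Of 22 tested genes of the planar cell polarity and calcium branch, 2 were lower and none higher, which is 9.09% called beside 6.48% of all genes tested. *Camk2a*, a calcium-dependent kinase, was 72.6, 76.0 and 60.5 CPM in control and 39.6, 42.1 and 41.4 CPM in *Phf2* KO replicates. It fell from 69.7 ± 8.15 to 41.0 ± 1.28 CPM (SD, n = 3 each), a log2 fold change of -0.77 (SE 0.076, adjusted p = 9.35e-05). *Scrib*, a polarity scaffold, fell from 137.0 ± 5.42 to 113.1 ± 5.24 CPM (-0.28, adjusted p = 0.00341).

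**Figure D5:**
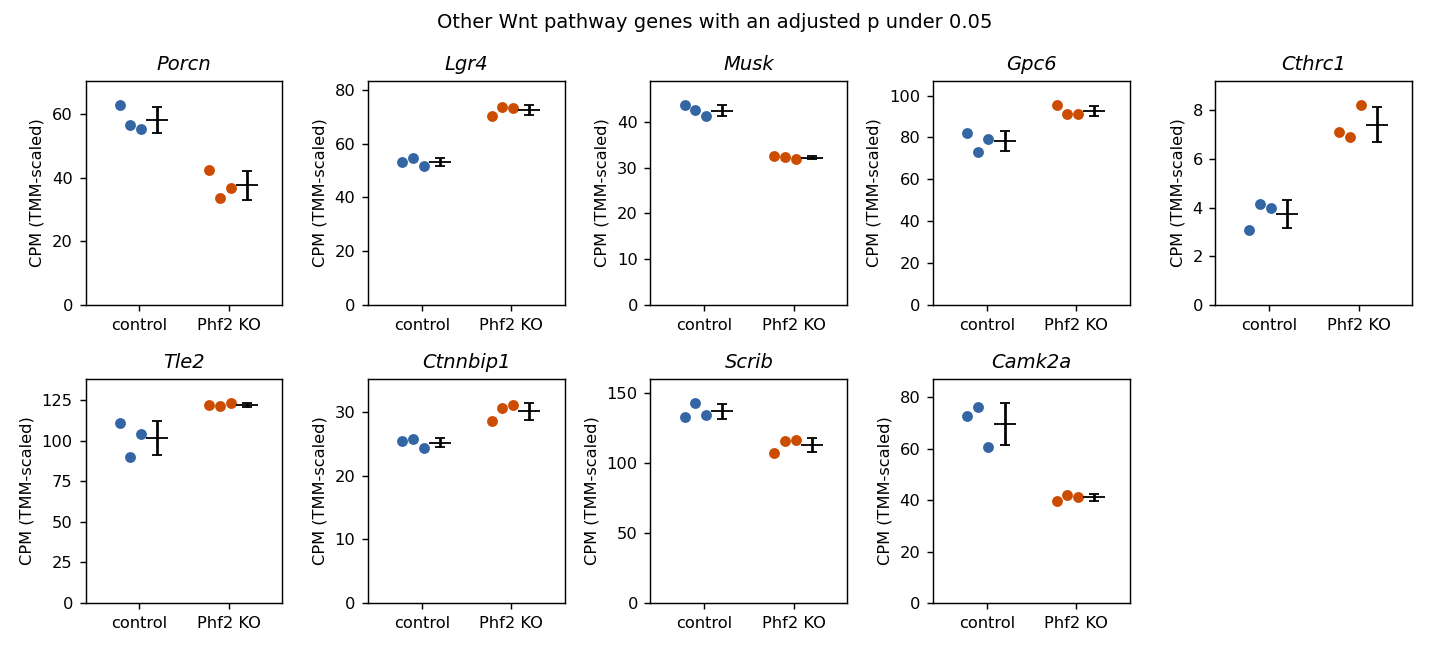
CPM (TMM-scaled, y axes from 0) of the 9 other Wnt pathway genes with an adjusted p under 0.05, with 1 point per library, control on the left and *Phf2* KO on the right of each panel; the bars give the mean ± SD of 3 libraries. *Lgr4* is higher in every *Phf2* KO library (70.3 to 73.7 against 51.7 to 54.6 CPM), and *Porcn* and *Camk2a* are lower in every one.

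Genes known as targets of β-catenin in various tissues gave calls close to the background: of 18 tested, 1 was higher and 1 lower (11.1% beside 6.48%), with a median log2 fold change of 0.02. The other 6 of the 24 listed had too few counts to be tested (*Nkd1*, *Rnf43*, *Lgr5*, *Sp5*, *Dkk1* and *Wif1*). *Fst*, which encodes follistatin, an inhibitor of myostatin and activins, was 52.6, 58.8 and 56.0 CPM in control and 27.7, 37.7 and 34.5 CPM in *Phf2* KO replicates. The mean fell from 55.8 ± 3.12 to 33.3 ± 5.10 CPM (SD, n = 3 each), with a log2 fold change of -0.75 (SE 0.1003, adjusted p = 0.00182). *Fst* was not called with limma on log2(TPM + 1) (adjusted p = 0.0653) or log2(TPM + 0.1) (0.0612). *Ccnd1*, which encodes cyclin D1, was 49.8, 49.1 and 61.3 CPM in control and 61.8, 69.2 and 70.7 CPM in *Phf2* KO replicates (log2 fold change 0.33, standard error 0.087, adjusted p = 0.0497). The highest control library of *Ccnd1* was just below the lowest *Phf2* KO library. Its call was lost without control replicate 1 (adjusted p = 0.167), control replicate 2 (0.178), *Phf2* KO replicate 2 (0.167) or *Phf2* KO replicate 3 (0.202), and was kept in 5 of 12 other fits, over a range of 0.00273 to 0.215. *Axin2*, *Lef1* and *Tcf7*, which are on this list as well as among the 52 genes, did not pass. Neither did *Znrf3*, *Notum* and *Apcdd1*, which are on this list as well as among the 83 further pathway genes.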

How the data were processed

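Polyadenylated RNA of 6 libraries was sequenced with paired-end reads of 150 bp from a strand-directional kit. Alignment by the authors was to mm10 with HISAT2, and StringTie gave the gene counts. The use of strand and the annotation are not given in the sources used here. In the deposited matrix the estimated counts are whole numbers that follow coverage times length divided by 75, so that 1 read pair adds about 4 counts. Each library also has a deposited table of TPM, a signal scaled by the authors within each library, and the coverage from which the count unit was worked out. These tables list transcripts under reference genes and again under assembled loci. The values of the reference genes, which summed to 976993 to 984559 per library, were used.

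The test was run on all genes with edgeR 4.0.16 in R 4.3.3: filterByExpr (minimum count 10), TMM, robust quasi-likelihood fit and test (two-sided), prior count 0.125 for log2 fold changes, and Benjamini-Hochberg adjustment with a threshold of 0.05. The study's own test, exactTest, was an alternative, as were limma-voom (limma 3.58.1) and DESeq2 1.42.0. Other scalings were library size alone, upper-quartile factors and the size factors of DESeq2. Genes were also taken without a filter, or with at least 1 CPM in 3 libraries or more. Further alternatives were counts divided by 4, limma on log2(TPM + 1) and log2(TPM + 0.1), a block for the replicate number, adjusted p-values under 0.01 and 0.1, and each library left out in turn. The procedure was tested on simulated data. Figures were drawn with Python 3.11.15. Gene coordinates are those of GENCODE M21 (GRCm38) and promoter sequences are from RefSeq.

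The pairing by replicate number was read from the data and is described neither by the labels nor by the methods. Over the 10923 genes that averaged 5 CPM or more, deviations from the group mean correlated at 0.250, 0.236 and 0.158 between libraries of the same number and at -0.238 to -0.0131 between the others. Deviations from a group mean cancel within each group, so the negative values follow in part from the positive ones. Genes, over which these correlations run, are no independent replicates. Whether the pairing exceeds what chance gives with so few libraries was not tested.

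The genes named are *Phf2*, each of the 52 Wnt genes that passed, the 2 most abundant of each class, *Axin2*, *Lef1*, *Ctnnb1*, *Lrp5* and *Lrp6*, and up to 5 genes past the threshold of each other list. Other genes, such as *Wnt5a*, *Wnt5b*, *Rspo3*, *Fzd7*, *Wls*, *Znrf3* and the genes beside a changed one, were named after their values were seen. The 52 genes were picked by a rule on gene symbols, and this rule and the other lists were chosen with earlier results of these data known.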

Additional observations from a re-analysis of the deposited data

How the results depend on the processing

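The counts of 5 higher and 2 lower Wnt genes became 2 and 0 with limma on TPM at a pseudocount of 1, 3 and 0 at a pseudocount of 0.1, and 3 and 1 at an adjusted p under 0.01. With 1 library left out they were 3 to 4 and 0 to 2, with 3 and 0 without control replicate 2 and without Phf2 KO replicate 3, and 3 and 1 without Phf2 KO replicate 1. Of the other pathway genes, 5 higher and 4 lower, 3 and 1 were called in both TPM fits and 2 were higher at an adjusted p under 0.01. Without 1 library, 2 to 4 were higher and 4 to 4 lower, with 2 higher without control replicate 2 and 3 without Phf2 KO replicate 2 or 3. The 1 higher β-catenin target became 0 with limma-voom, DESeq2's size factors, upper-quartile factors, library size alone, no filter, both TPM fits and an adjusted p under 0.01. It ranged from 0 to 1 without 1 library, and the 1 lower target from 1 to 1. The lower target became 0 in both TPM fits. The cause of these changes was not tested, except that a stricter threshold calls fewer genes by construction. The block on the replicate number gave 7 higher and 2 lower Wnt genes, adding *Sfrp4* and *Wnt10b*, and changed no other call among the 52 genes, the other pathway genes and the targets.

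For the 41 named genes, 492 values from alternatives with all libraries lost a call in 35 cases (28 of them in a TPM fit) and gained one in 7. The 246 values without 1 library lost a call in 32 cases and gained one in none. No called gene had the opposite sign in either set. The scalings moved the median of all genes by at most 0.0101 in size (-0.0101 on the log2 scale). Depth limits the 16 untested Wnt genes, and 3 wells of 1 pool per group limit what the spread covers.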
